A study of Mus musculus with 9 samples.

Results

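Transforming growth factor beta (TGF-beta) signalling and fibrosis were described through 9 genes, taken by symbol from the deposited expression table of 54532 genes. They were the 3 ligand genes Tgfb1, Tgfb2 and Tgfb3, the receptor genes Tgfbr1 and Tgfbr2, the feedback inhibitor Smad7, and Thbs1, Ltbp2 and Postn of the extracellular matrix. All 9 were found, and all 9 passed the filter on low values (at least 0.5 FPKM in at least 3 libraries), as did 15391 genes in all. FPKM is fragments per kilobase of gene length, scaled to library depth, so it can be compared between genes.

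The question of the study is whether lycopene, a carotenoid of tomatoes, protects the irradiated gut of mice. Bulk RNA was sequenced in 9 libraries, 3 of each group. IR+LYC mice were irradiated over the whole abdomen with 12 Gy on day 4 and were gavaged with lycopene in corn oil at 10 mg/kg per day for 10 days. IR mice had the same irradiation and corn oil alone, and control mice had corn oil without irradiation, so every group was gavaged with the oil. The labels give neither strain, age, sex nor gut segment, and do not say that libraries are separate animals, so p-values measure the spread between these samples.

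TGF-beta is secreted bound to its own propeptide, and the latent complex is held in the matrix until integrins or thrombospondin release it. The free ligand binds TGFBR2, which recruits and activates TGFBR1, and the receptors then phosphorylate SMAD2 and SMAD3, which enter the nucleus with SMAD4. Genes that these switch on include matrix genes of fibroblasts and Smad7, whose protein blocks the receptors. In the gut TGF-beta is known for restraining immune cells and for driving scarring after radiation.

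Depth was 17803889 to 22414949 reads per library, recovered from the FPKM values, and each member had between 36 and 4837 reads in every library. Libraries within a group differed. On the first principal component (61.2% of the variance) IR+LYC 2 lay at 41.4, next to the controls at 44.0, 22.9 and 30.7, while IR+LYC 1 and IR+LYC 3 lay at -66.6 and -35.1. IR 2 lay at -44.3, against -1.45 for IR 1 and 8.50 for IR 3. On the second component (10.3% of the variance) IR+LYC 2 lay apart from the controls. It was at -35.2, the lowest of the 9 libraries, against -0.234, 20.7 and 21.5 for the controls. IR+LYC 2 was also the lowest of the 9 libraries in 7 of the 9 members, so values with and without it are given for several members and list genes. Counts and medians of whole gene lists include it. Whether this library matches its label cannot be told from the files. The labelled tissue had its markers: the 10 epithelial markers summed to 3721 to 6171 FPKM in IR+LYC, 4916 to 5900 in IR and 5953 to 6848 in control, with none at 0 in any library.

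In no comparison did a member pass the test (limma on log2(FPKM + 1), Benjamini and Hochberg adjusted p under 0.05 over all 15391 genes). In IR against control 0 of 9 members passed, where 0.0195% of all genes did, and 0 of 9 had an unadjusted p under 0.05, where 8.34% of all genes did. For IR+LYC against IR the counts were again 0 of 9 by either rule, with 0% and 4.26% of all genes. They were 0 of 9 for IR+LYC against control, with 0.0195% and 14.1% of all genes. A second test, limma-voom on the recovered reads, also passed 0 of 9 in each comparison. These counts depend on which libraries set the spread. When only the 2 groups compared were fitted, 3 of 9 members (Postn, Smad7 and Tgfbr2) had an unadjusted p under 0.05 in IR against control, where 17.9% of all genes did, and 0 of 9 passed, where 0.65% did. In that fit 0 of 9 had an unadjusted p under 0.05 in IR+LYC against IR (2.69% of all genes) and in IR+LYC against control (10.9%, with 0.0065% passing). Without IR+LYC 2, the unadjusted counts were 3 of 9 in IR against control (17.8% of all genes), 1 of 9 in IR+LYC against IR (21.2%) and 4 of 9 in IR+LYC against control (45.2%). With all 9 libraries in 1 fit, the lowest adjusted p among the members was 0.634 in IR against control, 0.994 in IR+LYC against IR and 0.376 in IR+LYC against control.

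Some members nonetheless had groups that did not overlap. In IR against control 2 of 9 members, Tgfbr2 and Postn, were higher in every IR library than in every control, where 14.1% of all genes were. Smad7 was lower in every IR library than in every control, as were 14% of all genes. With these 3 of 9 members against 28.1% of all genes in either direction, the share among so few members is near the background. None of the 9 members failed to overlap in IR+LYC against IR, where 7.45% of all genes did (4.25% higher and 3.2% lower). Ltbp2 was lower in every IR+LYC library than in every control, 1 of 9 members, where 17.5% of all genes did not overlap (8.87% higher and 8.64% lower). The comparisons share groups and are not independent of one another.

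**Figure D1:**
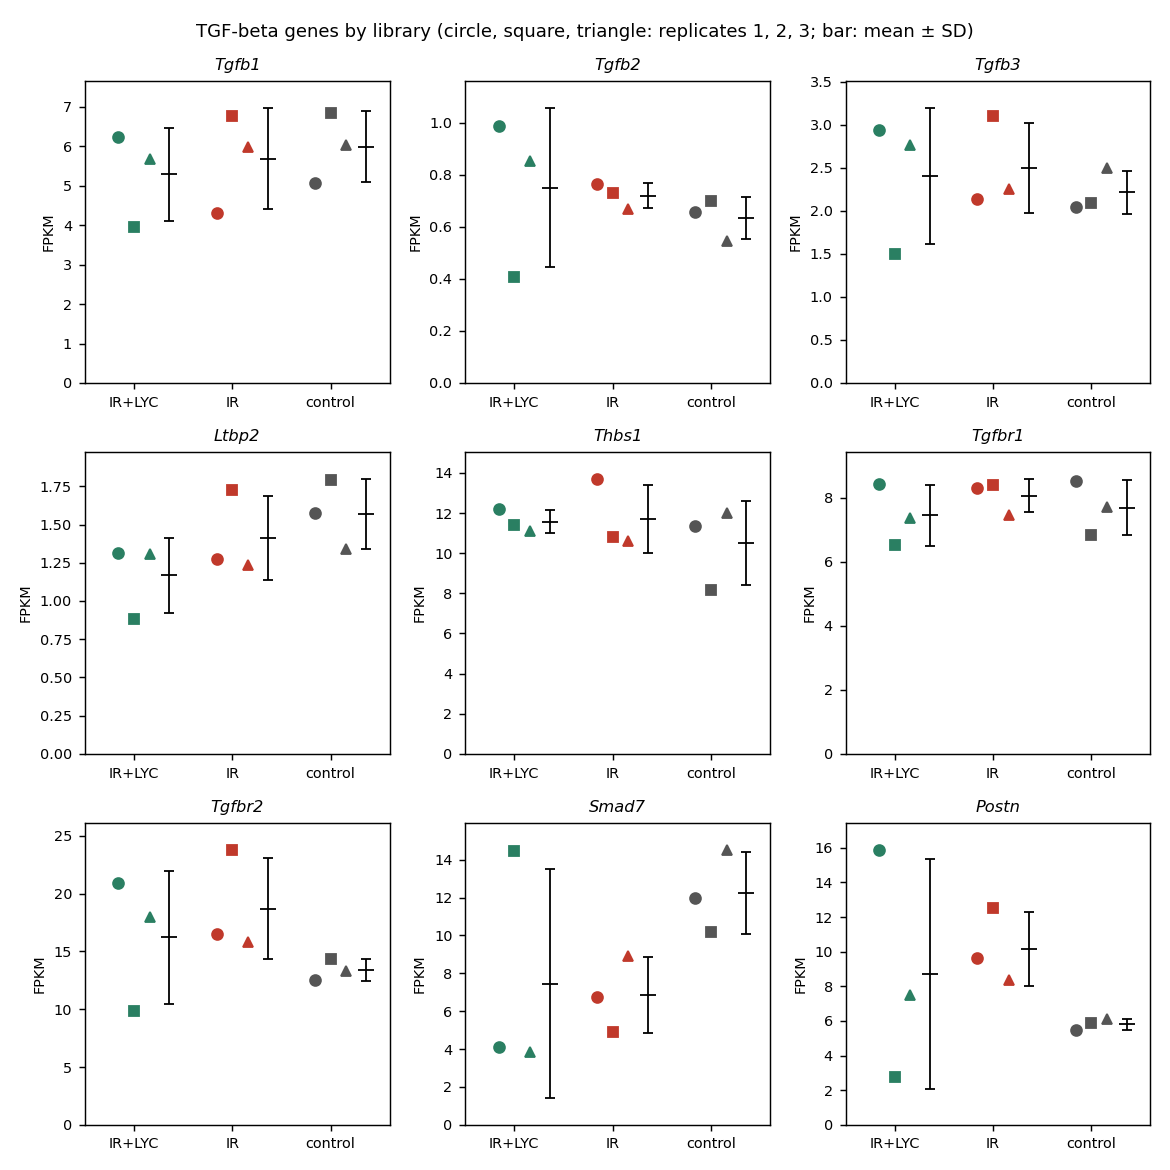
Level of each of the 9 genes in FPKM (y axis, from 0) in the IR+LYC, IR and control groups (x axis); points are libraries and bars are mean ± SD, n = 3. Tgfbr2 and Postn are higher and Smad7 lower in all 3 IR libraries than in all 3 controls, and IR+LYC 2 (square) sits apart from the other IR+LYC libraries for Smad7 and Postn.

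The ligands were led by Tgfb1, and their levels did not separate the groups. Tgfb1 (ENSMUSG00000002603, chromosome 7, 25687002 to 25705077, plus strand), the main isoform of immune and injured tissue, was at 6.22, 3.96 and 5.68 FPKM in IR+LYC, 4.30, 6.78 and 5.99 in IR, and 5.06, 6.85 and 6.04 in control. The 3 groups overlapped, with the lowest value in IR+LYC 2 and the highest in control 2. The log2 difference of IR against control was -0.07 (95% interval -0.52 to 0.37, limma adjusted p = 0.889), and that of IR+LYC against IR was -0.09 (-0.54 to 0.36, adjusted p = 0.994). These intervals allow a change of either sign, but not a doubling of FPKM + 1.

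Tgfb3 (ENSMUSG00000021253, chromosome 12, 86056745 to 86079041, minus strand), an isoform of connective tissue, was at 2.94, 1.49 and 2.77 FPKM in IR+LYC, 2.13, 3.10 and 2.26 in IR, and 2.05, 2.09 and 2.50 in control. Tgfb2 (ENSMUSG00000039239, chromosome 1, 186622792 to 186705989, minus strand), an isoform best known from development, was at 0.990, 0.408 and 0.855 FPKM in IR+LYC, 0.764, 0.729 and 0.669 in IR, and 0.658, 0.699 and 0.544 in control. Both genes were lowest in IR+LYC 2, and the groups overlapped in every comparison. In IR against control the log2 difference was 0.11 for Tgfb3 (95% interval -0.32 to 0.55) and 0.08 for Tgfb2 (-0.24 to 0.39). Tgfb2 had 36 to 162 reads per library, the fewest among the members, and at that level log2(FPKM + 1) understates fold changes.

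The make-up of the ligand transcripts was given as shares. Tgfb1 took 61.3, 67.5 and 61.0% of the summed ligand FPKM in IR+LYC, 59.7, 63.9 and 67.2% in IR, and 65.2, 71.1 and 66.5% in control. Its mean share was 63.3 ± 3.68% in IR+LYC, 63.6 ± 3.75% in IR and 67.6 ± 3.11% in control (SD, n = 3). The difference was -3.97 percentage points in IR against control (exact two-sided permutation p = 0.3, adjusted 0.45 over 3 comparisons), -0.305 in IR+LYC against IR (p = 1, adjusted 1) and -4.27 in IR+LYC against control (p = 0.3, adjusted 0.45). With 3 libraries a group such a test cannot go below 0.1, so it could have called no difference, and the shares are a description. The summed ligand FPKM was 8.44 ± 2.27 in IR+LYC, 8.91 ± 1.71 in IR and 8.83 ± 0.963 in control.

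**Figure D2:**
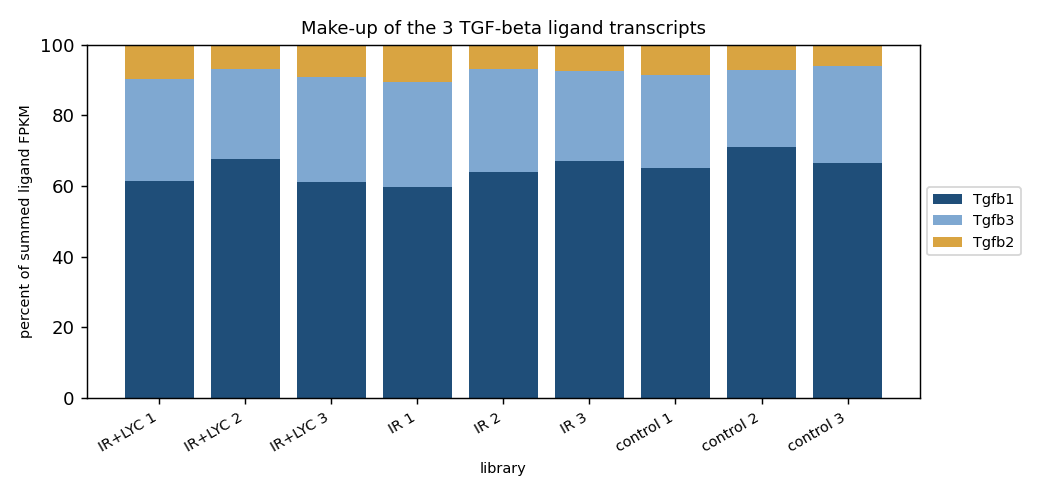
Share of each ligand gene in the summed FPKM of Tgfb1, Tgfb2 and Tgfb3 (y axis, percent) in each of the 9 libraries (x axis). Tgfb1 makes up 59.7 to 71.1% in every library, with Tgfb3 next and Tgfb2 last.

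Thbs1 (ENSMUSG00000040152, chromosome 2, 118111876 to 118127133, plus strand), thrombospondin-1, which can free latent TGF-beta, was at 12.2, 11.4 and 11.1 FPKM in IR+LYC, 13.7, 10.8 and 10.6 in IR, and 11.4, 8.15 and 12.0 in control. The groups overlapped, the highest value being in IR 1 and the lowest in control 2. The log2 difference was 0.15 in IR against control (95% interval -0.21 to 0.51, adjusted p = 0.722) and -0.01 in IR+LYC against IR (-0.37 to 0.35, adjusted p = 0.999). Platelets also store thrombospondin-1 and TGF-beta 1. The 6 platelet markers summed to 3.88 to 12.8 FPKM in IR+LYC, 8.003 to 9.26 in IR and 4.46 to 6.51 in control. Up to 2 of the 6 were at 0 in a library. Only 1 of them, Pf4, passed the filter on low values, so the sum is mainly the level of 1 gene. The part of platelets in these levels was not tested.

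Ltbp2 (ENSMUSG00000002020, chromosome 12, 84783212 to 84876532, minus strand) encodes a relative of the latent TGF-beta binding proteins that sits on elastic fibres. It was at 1.31, 0.882 and 1.30 FPKM in IR+LYC, 1.27, 1.73 and 1.23 in IR, and 1.58, 1.79 and 1.34 in control. All 3 IR+LYC libraries lay below all 3 controls, by a narrow margin (1.31 FPKM against 1.34 at the nearest), and IR overlapped both. The log2 difference of IR+LYC against control was -0.25 (standard error 0.13, 95% interval -0.55 to 0.05, adjusted p = 0.385), and it was -0.15 without IR+LYC 2 (adjusted p = 0.372).

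Tgfbr1 (ENSMUSG00000007613, chromosome 4, 47353222 to 47414931, plus strand), the signalling receptor kinase, was at 8.44, 6.53 and 7.36 FPKM in IR+LYC, 8.31, 8.40 and 7.47 in IR, and 8.53, 6.83 and 7.70 in control. It had the narrowest range of the members, the highest library being 1.31 times the lowest. Its log2 difference was 0.06 in IR against control (95% interval -0.21 to 0.34) and -0.11 in IR+LYC against IR (-0.38 to 0.17).

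Tgfbr2 (ENSMUSG00000032440, chromosome 9, 116084293 to 116175360, minus strand), the receptor that binds the ligand first, had the highest mean of the members, 16.1 FPKM over the 9 libraries. It was at 20.9, 9.81 and 17.9 FPKM in IR+LYC, 16.5, 23.7 and 15.9 in IR, and 12.5, 14.4 and 13.3 in control. Every IR library and 2 of 3 IR+LYC libraries lay above every control, and IR+LYC 2 lay below them all. The mean was 18.7 ± 4.38 FPKM in IR and 13.4 ± 0.920 in control (SD, n = 3), a log2 difference of 0.43 (standard error 0.27, 95% interval -0.18 to 1.04, limma adjusted p = 0.646). Without IR+LYC 2 the standard error was 0.16 (adjusted p = 0.243). IR+LYC against IR gave -0.23 (-0.84 to 0.38, adjusted p = 0.994), and 0.07 without IR+LYC 2 (adjusted p = 0.836). IR+LYC against control gave 0.20 (adjusted p = 0.684), and 0.50 without IR+LYC 2 (adjusted p = 0.0696). The ratio of Tgfbr2 to Tgfbr1 FPKM, looked at after the values were seen, was 2.14 ± 0.551 in IR+LYC, 2.31 ± 0.452 in IR and 1.77 ± 0.318 in control, and the groups overlapped.

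Smad7 (ENSMUSG00000025880, chromosome 18, 75367529 to 75395935, plus strand), the feedback inhibitor that binds the receptors and recruits ubiquitin ligases to them, was at 4.08, 14.4 and 3.83 FPKM in IR+LYC, 6.75, 4.91 and 8.93 in IR, and 12.0, 10.2 and 14.5 in control. IR+LYC 1 and IR+LYC 3 were the lowest of all 9 libraries, while IR+LYC 2 was within 0.1 FPKM of the highest control. The mean was 6.86 ± 2.01 FPKM in IR and 12.2 ± 2.16 in control (SD, n = 3), a log2 difference of -0.77 (standard error 0.43, 95% interval -1.75 to 0.22, adjusted p = 0.634), with 600, 500 and 740 reads in IR and 952, 808 and 1060 in control. In IR+LYC the mean was 7.45 ± 6.06 FPKM, an SD of 81.2% of the mean. IR+LYC against IR gave -0.09 (-1.07 to 0.90, adjusted p = 0.997).

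The Smad7 call in IR+LYC against control turned on IR+LYC 2. Without it, IR+LYC against control gave -1.40 (standard error 0.22, limma adjusted p = 0.0201), against -0.86 (standard error 0.43, adjusted p = 0.376) with all 9 libraries. In that fit 1 of 9 members passed, Smad7, while 26.8% of all genes did, so the count is not above the background. None passed in IR against control, where 0.637% of all genes did. For IR+LYC against IR the value without it was -0.63 (adjusted p = 0.202), and in IR against control -0.77 (adjusted p = 0.146). The ratio of Smad7 to Tgfbr2 FPKM, looked at after the values were seen, was 0.195, 1.47 and 0.214 in IR+LYC, 0.410, 0.207 and 0.563 in IR, and 0.956, 0.710 and 1.09 in control.

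Postn (ENSMUSG00000027750, chromosome 3, 54361109 to 54391037, plus strand), which encodes periostin, a matrix protein that TGF-beta induces in fibroblasts, had the widest range of the members. It was at 15.9, 2.78 and 7.49 FPKM in IR+LYC, 9.65, 12.5 and 8.34 in IR, and 5.46, 5.88 and 6.10 in control. Every IR library and 2 of 3 IR+LYC libraries lay above every control, and IR+LYC 2 lay below them. The highest library was 5.71 times the lowest, and both were of the IR+LYC group. The mean was 10.2 ± 2.12 FPKM in IR and 5.82 ± 0.326 in control (SD, n = 3), a log2 difference of 0.70 (standard error 0.46, 95% interval -0.35 to 1.74, limma adjusted p = 0.655). Without IR+LYC 2 the standard error was 0.25 (adjusted p = 0.236). IR+LYC against IR gave -0.44 (-1.49 to 0.61, adjusted p = 0.994), which turned to 0.12 without IR+LYC 2 (adjusted p = 0.827). IR+LYC against control gave 0.26 (adjusted p = 0.758), and 0.81 without IR+LYC 2 (adjusted p = 0.0639).

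**Figure D3:**
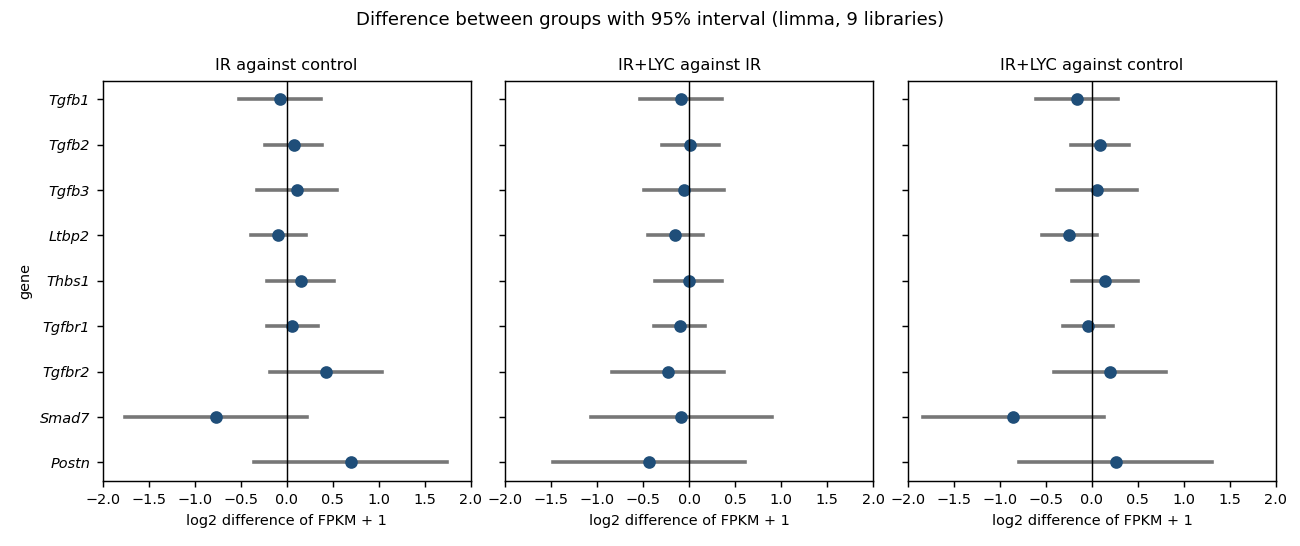
Log2 difference of FPKM + 1 (x axis) of each gene (y axis) in IR against control, IR+LYC against IR and IR+LYC against control; points are limma estimates from all 9 libraries and lines their 95% intervals. Every interval holds 0, and those of Smad7, Postn and Tgfbr2 are the widest.

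Of the promoter sequences, those of Tgfbr2 and Postn are shown because both genes were higher in every IR library than in every control. The RefSeq windows run from 250 bases before to 50 after the annotated start on GRCm38.p6. They are Tgfbr2 at chr9:116175314-116175613 (minus strand) and Postn at chr3:54360857-54361156 (plus strand, of 2 listed starts the nearer to the gene start in the deposited table). Each is written 5′ to 3′ along the gene, with motif matches in capitals.
Tgfbr2: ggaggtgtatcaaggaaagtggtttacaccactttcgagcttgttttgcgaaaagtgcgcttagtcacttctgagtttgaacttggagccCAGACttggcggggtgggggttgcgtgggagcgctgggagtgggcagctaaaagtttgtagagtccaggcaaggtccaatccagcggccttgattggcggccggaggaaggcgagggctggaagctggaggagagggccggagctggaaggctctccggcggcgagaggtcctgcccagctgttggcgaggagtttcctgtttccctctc
Postn: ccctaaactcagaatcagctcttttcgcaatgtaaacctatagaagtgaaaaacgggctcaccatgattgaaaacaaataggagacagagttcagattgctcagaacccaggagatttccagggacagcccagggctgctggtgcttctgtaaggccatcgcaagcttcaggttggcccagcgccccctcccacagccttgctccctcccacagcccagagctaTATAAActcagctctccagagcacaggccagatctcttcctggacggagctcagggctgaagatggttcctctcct
The motifs searched on both strands were the SMAD-binding box CAGAC, the core promoter element TATAAA and the AP-1 site TGANTCA, which do not overlap in these windows. Among 32851 mouse promoter windows of the same length, 49.6% held the first, 13.6% the second and 7.81% the last. The Tgfbr2 window held 1 CAGAC, at position -160 from the start, and neither of the other motifs. The Postn window held 1 TATAAA, at position -26, and neither of the other motifs. These matches describe the letters in these windows and are not binding sites shown by data.

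Other genes that activate or store the ligand were looked at as a list of 18, of which 17 passed the filter. In IR against control 0 rose and 0 fell, 11 had a log2 difference above 0 and 6 below, and the median was 0.25 against -0.01 over all genes. The groups did not overlap at 8 higher and 1 lower of the 17, where 14.1% of all genes were higher and 14% lower. Mmp2, a gelatinase, was at 34.0 ± 7.68 FPKM in IR and 18.1 ± 1.30 in control (adjusted p = 0.548). Itgav, the alpha chain of integrins that pull the ligand free, was at 4.58 ± 0.106 and 3.69 ± 0.244 FPKM in IR and control (adjusted p = 0.594), and Fbn1, the fibrillin to which latent complexes bind, was at 3.96 ± 0.554 and 2.90 ± 0.144 FPKM (adjusted p = 0.605). For IR+LYC against IR, IR+LYC 2 included, 0 rose and 0 fell, with 15 of 17 below 0 (median -0.24 against -0.01). Of all genes 48.4% were above 0 in this comparison. In the list 2 were lower without overlap, as were 3.2% of all genes. These 2 were Itgb3, a partner chain of Itgav, at 3.08 ± 0.843 FPKM in IR+LYC and 5.43 ± 1.39 in IR, and Itgav at 3.39 ± 0.606 and 4.58 ± 0.106 FPKM (adjusted p = 0.994 for both). Against control, IR+LYC had 0 that rose and 0 that fell, with a median of -0.06.

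Other receptors and SMAD regulators were a list of 19, with 18 tested. In IR against control 0 rose and 0 fell, with 7 above 0 and 11 below and a median of -0.12 against -0.01 over all genes. The groups did not overlap at 3 higher and 3 lower of the 18, where 14.1% of all genes were higher and 14% lower. Smad6, the inhibitory SMAD that mainly restrains bone morphogenetic protein signals, was at 3.81, 6.80 and 4.15 FPKM in IR+LYC, 5.67, 4.05 and 6.37 in IR, and 10.8, 9.07 and 9.99 in control. All 6 irradiated libraries lay below all 3 controls, IR+LYC 2 included. Its log2 difference was -0.80 in IR against control (standard error 0.21, adjusted p = 0.368) and -0.92 in IR+LYC against control (standard error 0.21, adjusted p = 0.231; -1.14 without IR+LYC 2, adjusted p = 0.0180). Tgif1, a corepressor of SMADs, was at 6.05 ± 0.780 FPKM in IR and 3.65 ± 0.171 in control (adjusted p = 0.517). Ski, which also represses SMAD complexes, was at 16.2 ± 0.715 FPKM in IR+LYC and 20.8 ± 1.15 in control (adjusted p = 0.323), and Smad2, a signal transducer, at 8.17 ± 0.927 and 10.2 ± 0.119 FPKM (adjusted p = 0.327). Smad2 was also lower in every IR library than in every control, at 8.65 ± 0.482 FPKM in IR (limma adjusted p = 0.605). Against control, 0 rose and 0 fell in IR+LYC, with 13 of 18 below 0, a median of -0.22 against -0.01, and 1 higher and 5 lower without overlap, where 8.87% of all genes were higher and 8.64% lower. Against IR, with IR+LYC 2 included, 17 of 18 were below 0 with a median of -0.09 against -0.01, and 0 passed in either direction.

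Among 23 genes known as TGF-beta targets, 22 were tested and 0 rose or fell in any comparison. For IR against control 14 were above 0 and 8 below, with 11 higher and 6 lower without overlap (14.1% and 14% of all genes) and a median of 0.29 against -0.01. Those higher included Vcan, a matrix proteoglycan, at 0.770 ± 0.155 FPKM in IR and 0.253 ± 0.0397 in control (adjusted p = 0.441), Tagln, a smooth muscle actin-binding protein, at 4.33 ± 0.920 and 1.55 ± 0.357 FPKM (adjusted p = 0.495), and Timp1, a protease inhibitor, at 1.64 ± 0.715 and 0.617 ± 0.205 FPKM (adjusted p = 0.526). The median was 0.10 in IR+LYC against control. Tgfbi, a matrix protein named for its induction by TGF-beta, was lower in every IR+LYC library than in every control, at 57.2 ± 27.2 FPKM in IR+LYC and 113.9 ± 27.4 in control (adjusted p = 0.319). Id3, a target of bone morphogenetic protein signals, was at 35.3 ± 8.09 and 54.2 ± 2.62 FPKM in those groups (adjusted p = 0.319). Both genes were also among the 6 lower in every IR library than in every control. In IR Tgfbi was at 72.6 ± 8.08 FPKM (limma adjusted p = 0.626) and Id3 at 43.5 ± 7.46 FPKM (adjusted p = 0.638). For IR+LYC against IR the median was -0.16, and all groups overlapped.

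Matrix and fibrosis genes other than the members were a list of 23, with 21 tested. Between IR and control 0 rose and 0 fell, 18 were above 0 and 3 below, 13 were higher without overlap and 0 lower (14.1% and 14% of all genes), and the median was 0.61 against -0.01. Loxl2, a collagen-crosslinking oxidase, was at 5.77, 3.81 and 4.77 FPKM in IR+LYC, 6.36, 7.94 and 6.41 in IR, and 2.42, 3.25 and 3.01 in control. Its 3 groups did not overlap, with IR+LYC between IR and control, and its log2 difference was 1.02 in IR against control (standard error 0.15, adjusted p = 0.142) and -0.46 in IR+LYC against IR (standard error 0.15, adjusted p = 0.994). Col6a3 was at 9.03 ± 0.794 FPKM in IR and 4.87 ± 0.205 in control (adjusted p = 0.543) and Col5a1 at 7.75 ± 1.01 and 3.94 ± 0.134 FPKM (adjusted p = 0.529). Both encode collagen chains. In the fit of only IR and control, where 0.65% of all genes passed, Loxl2, Col6a3 and Col5a1 passed and were higher in IR (limma adjusted p = 0.0306 for each). Against IR, 16 of 21 in IR+LYC were below 0, with a median of -0.21, where 48.4% of all genes were above 0. This count includes IR+LYC 2 and was not computed without it. Without that library Col5a1 went from -0.53 to -0.19 and Spp1 from -0.01 to 0.25. Of the other lists, Skil went the other way, from -0.56 to -1.04, and Tgfbi from -0.43 to -0.79. Against control, 18 of 21 in IR+LYC were above 0, with a median of 0.36 and 1 higher without overlap (8.87% of all genes).

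Without IR+LYC 2, where 26.8% of all genes passed in IR+LYC against control, some list genes that the naming rule had picked passed as well. That rule took small p-values from these same data, so their passing is no separate result. Others that it had picked, among them Bgn, Fbn1, Itgav, Lox, Mmp2, Tagln and Tnc, did not pass. Besides Smad6, the SMAD corepressor Skil (log2 difference -1.31, limma adjusted p = 0.0203), Smad2 (-0.36, adjusted p = 0.0323), Tgfbi (-1.41, adjusted p = 0.0190), Id1 (-0.78, adjusted p = 0.0222) and Id3 (-0.80, adjusted p = 0.0224) fell, as did the proteases Furin (-0.62) and Mmp9 (-0.93). Those that rose were Tgif1 (0.81, adjusted p = 0.0212), the elastin gene Eln (1.23, adjusted p = 0.0379), Loxl2 (0.69, adjusted p = 0.0242), the osteopontin gene Spp1 (0.88, adjusted p = 0.0239), Thbs4 (adjusted p = 0.0350), Col6a3 (0.48) and Vcan (0.41). In the same fit Loxl2 (1.02, adjusted p = 0.0249) and Col6a3 (0.77, adjusted p = 0.0475) rose in IR against control, where 0.637% of all genes passed.

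**Figure D4:**
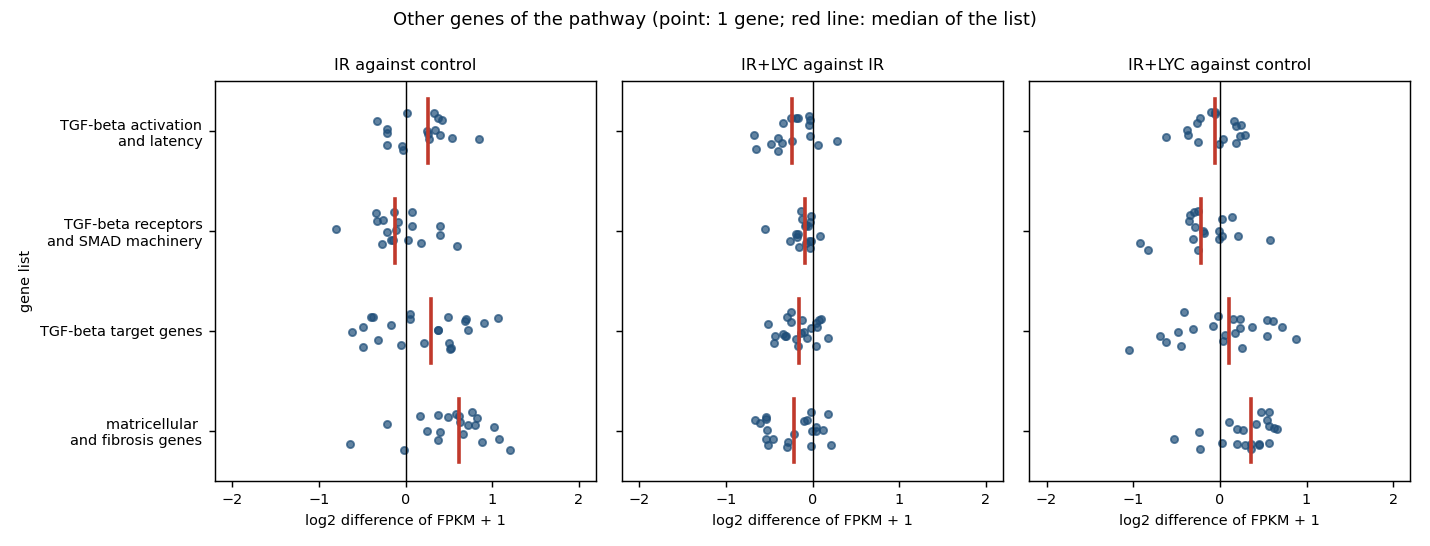
Log2 difference of FPKM + 1 (x axis) of each tested gene of the 4 pathway lists (y axis) in the 3 comparisons; points are genes and red lines list medians. In IR against control the matrix and fibrosis list has its median at 0.61 and the receptor and SMAD list at -0.12.

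Sums of cell type markers also differed between the groups, in both directions. The 10 fibroblast markers summed to 342, 93.6 and 228 FPKM in IR+LYC, 235, 335 and 221 in IR, and 155, 165 and 154 in control. Of them, 6 of 10 were higher in IR than in control without overlap, against 14.1% of all genes higher and 14% lower, a background that holds for the other marker lists too, and none was at 0 in any library. The list shares Col1a1, Col1a2, Col3a1, Lum and Dcn with the pathway lists, and Tagln and Acta2 among the targets are also smooth muscle markers. The 10 smooth muscle markers, all 10 higher in IR than in control without overlap, summed to 462 to 2274 FPKM in IR+LYC, 1087 to 1433 in IR and 482 to 618 in control. The 10 macrophage and monocyte markers summed to 297 to 763 FPKM in IR+LYC, 468 to 869 in IR and 297 to 380 in control, with 9 of 10 higher in IR without overlap. The 10 markers of T and intraepithelial lymphocytes ran the other way, at 35.3, 224 and 62.6 FPKM in IR+LYC, 113, 80.8 and 165 in IR, and 378, 477 and 313 in control, with 9 of 10 lower in IR without overlap. Brush border enterocyte markers summed to 1217, 25190 and 6315 FPKM in IR+LYC, 18109, 3508 and 21985 in IR, and 27342, 20388 and 23650 in control. The 10 endothelial markers summed to 41.4 to 70.8 FPKM in IR+LYC, 44.9 to 49.8 in IR and 49.9 to 52.7 in control. Of these, 1 was higher and 3 were lower in IR than in control without overlap. IR+LYC 2 was the lowest of the 9 libraries in the fibroblast, smooth muscle and macrophage sums and lay within the range of the controls in the brush border sum. The part of these cell types in the members' values was not tested. In bulk tissue fewer cells of a type and less RNA per cell cannot be told apart.

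Ratios of members to marker sums were looked at after the values were seen and are a description. The fibroblast sum was itself higher in every IR library than in every control and holds collagen genes of the fibrosis lists. A gene unchanged in FPKM is therefore lower per that sum. On this scale 7 of 9 members were lower and 0 higher in every IR library than in every control. The share of all genes on this scale was not computed, so the count is no result about the members. Postn was at 4.64, 2.96 and 3.29 per 100 FPKM of fibroblast markers in IR+LYC, 4.10, 3.73 and 3.77 in IR, and 3.53, 3.56 and 3.97 in control, and the groups overlapped. Tgfbr2 on the same scale was at 6.12, 10.5 and 7.87 in IR+LYC, 7.01, 7.08 and 7.17 in IR, and 8.09, 8.70 and 8.69 in control, lower in every IR library than in every control. The epithelial sum was itself lower in every IR library (4916 to 5900 FPKM) than in every control (5953 to 6848), which raises ratios to it in IR. Its 10 markers did not all go that way, since 2 were higher and 4 lower in IR than in control without overlap. Per that sum 3 of 9 members were higher and 1 lower in every IR library than in every control, again without a share of all genes. Per 100 FPKM of epithelial markers Tgfbr2 ran the other way, at 0.562, 0.159 and 0.419 in IR+LYC, 0.302, 0.483 and 0.269 in IR, and 0.210, 0.234 and 0.195 in control. Postn per 100 FPKM of epithelial markers was at 0.426, 0.0450 and 0.175 in IR+LYC, 0.177, 0.254 and 0.141 in IR, and 0.0917, 0.0961 and 0.0891 in control, higher in every IR library than in every control. Smad7 per 100 FPKM of epithelial markers was at 0.110, 0.234 and 0.0895 in IR+LYC, 0.124, 0.09998 and 0.151 in IR, and 0.201, 0.166 and 0.212 in control, lower in every IR library than in every control, as it was per fibroblast marker. Which cells carried these transcripts was not tested.

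**Figure D5:**
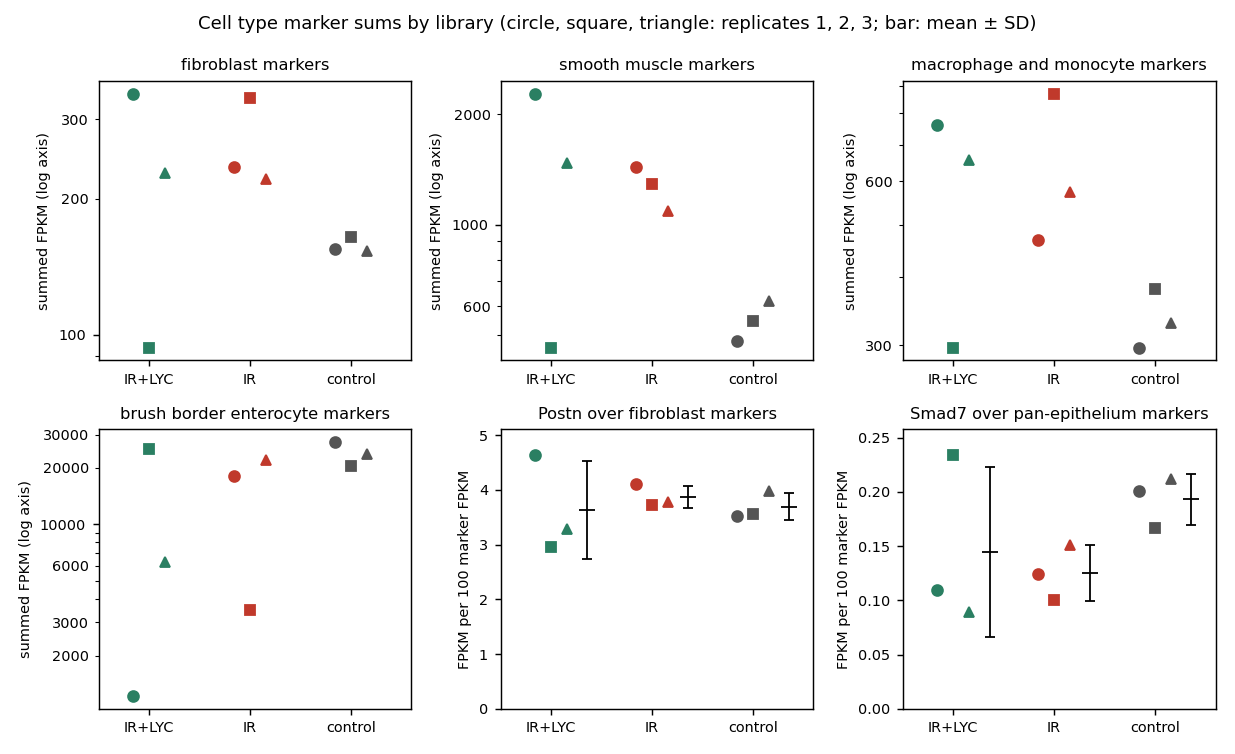
Summed FPKM of 4 marker lists (y axis, log scale) and the levels of Postn and Smad7 per 100 FPKM of fibroblast or epithelial markers (y axis, from 0) in the IR+LYC, IR and control groups (x axis); points are libraries and bars, in the unlogged panels, mean ± SD, n = 3. The fibroblast sums of IR lie between 221 and 335 FPKM, above the controls at 154 to 165, while Postn per fibroblast marker overlaps between the groups.

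The genes most like each member over the 9 libraries were found by Pearson's r of log2(FPKM + 1), a description with no test, since all points share their libraries. Postn was most like Msrb3, a methionine sulfoxide reductase (r = 0.983), and Tgfbr3, betaglycan, the coreceptor that presents the ligand (r = 0.982). Tgfbr3 was at 8.05, 3.18 and 5.05 FPKM in IR+LYC, 5.78, 7.29 and 5.03 in IR, and 4.18, 4.09 and 4.66 in control. Smad7 was most like Card19 (r = 0.991) and Plekhh3 (r = 0.983), and Tgfbr2 most like Rcn2 (r = 0.985) and Ethe1 (r = 0.984). Tgfb1 was most like Msn, which ties actin to the membrane (r = 0.931), and Tmem173 (r = 0.928). Tgfb2 was most like Bcam (r = 0.946) and Vgll4 (r = 0.946), and Tgfb3 most like Itm2c (r = 0.969) and Ext2 (r = 0.969). For Ltbp2 the nearest were Ppp1r18 (r = 0.916) and Ythdf1 (r = 0.902), for Tgfbr1 Gpx8 (r = 0.876) and Col15a1 (r = 0.850), and for Thbs1 Klhl24 (r = 0.858) and Ate1 (r = 0.809).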

How the data were processed

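Bulk RNA of mouse intestine was measured in 9 libraries. Fastp trimming and alignment by HISAT2 2.0.5 are named per the submitters' processing notes; the counter, strand setting and genome build are not given in the sources used here. The authors deposited FPKM values per gene, not on a log scale. Of 54532 gene IDs 54495 are in GENCODE M21 (GRCm38), 53585 with the same position, the 9 members among them, and coordinates are on that build. Reads were recovered as whole multiples per library and gene length, and 202261 of 202261 values above 0 were whole within 0.01 read. Relative to the recovered totals, the depth used by the authors was 0.854 to 1.26, a further scaling per library.

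Differences were tested on log2(FPKM + 1) with limma 3.58.1 in R 4.3.3, in 1 model of the 3 groups with a mean-variance trend, on all 15391 genes that reached 0.5 FPKM in 3 or more libraries. The Tgfb1 share was tested with an exact permutation test. The limma test was also run on simulated data with independent noise for each gene and library. Those data held no outlying library such as IR+LYC 2. The run therefore does not show how the test behaves on these libraries. Genes overlapping Tgfb2, Tgfb3, Thbs1 and Ltbp2 on the other strand were at no more than 1.13 FPKM. The highest, Ttll5, shares 0 exonic bases with Tgfb3. Those that share exonic bases with a member were at no more than 0.112 FPKM. Without a stated strand setting, reads in the shared bases cannot be told apart. Members and lists were chosen with earlier results of these data known. Named were all members, up to 4 genes of a list with the smallest p per comparison, and the 2 genes most like each member with a mean of at least 5 FPKM. In the table Ccn1 and Ccn2 stand as Cyr61 and Ctgf. Alternatives changed the pseudocount, filter, scaling, variance model, groups fitted, replicate block and test (limma-voom), or left out each library. The RefSeq promoter table was matched by symbol. Python 3.11.15 and matplotlib 3.10.9 drew the figures.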

Additional observations from a re-analysis of the deposited data

How the results depend on the processing

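Of the 9 members in 3 comparisons, none passed the threshold under any alternative except Smad7 in IR+LYC against control without IR+LYC 2. The count of members past the threshold there ran from 0 to 1 when 1 library was left out. Smad7, Tgfbr2, Postn and Tgfb2 in IR against control, Ltbp2 and Tgfbr1 in IR+LYC against IR, and Smad7 and Ltbp2 in IR+LYC against control kept their direction under every alternative run. Several alternatives could not turn a direction. The filter, variance model, replicate block and fit of only the groups compared leave the log2 difference as it was. So does leaving out a library of the group not compared.

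Leaving out 1 library turned the log2 difference in IR against control of Tgfb1 (range -0.19 to 0.086), Tgfb3 (-0.0056 to 0.19), Tgfbr1 (-0.0093 to 0.13) and Thbs1 (-0.0063 to 0.25). In IR+LYC against IR it turned that of Tgfb1 (-0.25 to 0.073), Tgfb2 (-0.090 to 0.16), Tgfb3 (-0.18 to 0.15), Tgfbr2 (-0.44 to 0.071), Smad7 (-0.63 to 0.20), Thbs1 (-0.068 to 0.10) and Postn (-0.96 to 0.12), and the Tgfb1 share (-2.43 to 1.49 percentage points). In IR+LYC against control it turned Tgfb2 (-0.014 to 0.24), Tgfb3 (-0.065 to 0.26), Tgfbr1 (-0.13 to 0.037), Tgfbr2 (-0.0073 to 0.50), Thbs1 (-0.014 to 0.24) and Postn (-0.27 to 0.81). Rescaling without mitochondrial, immunoglobulin and pancreatic genes put the median of all genes at 0.16 in both comparisons with control, against -0.01 before. It turned Tgfb1 (0.13) and Ltbp2 (0.050) in IR against control, and Tgfb1 (0.041) and Tgfbr1 (0.17) in IR+LYC against control. In IR+LYC against IR a pseudocount of 0.1 turned Tgfb2 (-0.020) and median-ratio scaling turned Thbs1 (0.0030).

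Over all genes, 3 passed in IR against control, 0 in IR+LYC against IR and 3 in IR+LYC against control. For IR against control the count was 1 with a pseudocount of 0.1, 7 without a filter, 1 at a mean of at least 5 FPKM, 100 in the fit of the 2 groups, 0 with the replicate block, 0 with limma-voom, and 0 to 98 when 1 library was left out. For IR+LYC against control the same counts were 0, 6, 1, 1, 0, 0 and 0 to 4120, and 1 after rescaling. In IR+LYC against IR 0 genes passed under every alternative, with 655 at an unadjusted p under 0.05 (745 with limma-voom). The labels do not say whether the replicate numbers pair the libraries. Same-numbered libraries correlated at -0.65 to 0.38 in their deviations from group means, and differently numbered ones at -0.61 to 0.64. With 3 libraries a group these correlations cannot decide whether there is a pairing. The replicate block passed 0 members in each comparison. With 36 to 162 reads per library, Tgfb2 is the member whose level depth limits most.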
